A study of Mus musculus with 10 samples.

Results

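The transcripts followed here are 8 genes that mark mast cells, read in libraries of neutrophils sorted from tumours. They are the chymases Cma1 and Mcpt4, the tryptases Tpsb2 and Tpsab1, the carboxypeptidase Cpa3, the stem cell factor receptor Kit, and Fcer1a and Ms4a2, which encode subunits of the high-affinity receptor for immunoglobulin E. They were taken by symbol from the 55385 mouse genes of the count table, and all 8 were among the 29648 genes that passed the filter on low counts. The set was chosen by symbol after earlier results of these data had shown Cma1 reads to be low after treatment in control tumours, so the values of that comparison are given as a description.

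The libraries were bulk RNA-seq of Tomato+ neutrophils from squamous cell carcinomas (SCC) grafted on CatchupIVM-red mice, in libraries whose descriptions all carry the strain label C57. These mice carry a red fluorescent reporter tied to the neutrophil gene Ly6g. The grafted cells were either the parental Sox2low control, whose libraries also carry the letters GFP in their descriptions, or Sox2Hi, which have high levels of the stem cell transcription factor Sox2. Tumours were naive or were treated with anti-PDL1 and a CD40 agonist, an immunotherapy pair. Naive tumours gave 3 libraries for each graft, and treated tumours gave 2 for each. The labels give no age or sex of the mice and do not say whether replicates came from separate animals or whether animals were pooled, so p-values measure only the spread between these libraries.

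Mast cells are resident cells of skin and mucosa that store proteases in granules and release them when antigen cross-links immunoglobulin E on their surface. In mice, the connective-tissue type found in skin makes the chymases Cma1 (mast cell protease 5) and Mcpt4, the tryptases Tpsb2 and Tpsab1, and Cpa3, while the mucosal type makes the chymases Mcpt1 and Mcpt2. Kit binds stem cell factor, the product of Kitl, on which mast cells depend for survival. A sorted neutrophil is not known to make these granule proteases, so their reads were treated as a trace of another cell type. In bulk samples, fewer cells of a type and less RNA per cell cannot be told apart.

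Total gene counts ran from 13815734 to 22986193 per library, and tdTomato reads from 135 to 514. Levels are in CPM, the usual unit of a gene's reads relative to library size, with library sizes scaled by TMM factors. A list of 14 neutrophil genes summed to between 4004 and 6819 CPM in the 6 naive libraries. It summed to between 10493 and 32858 CPM in the 4 treated ones. Control treated libraries had TMM factors of 0.63 and 0.589, and the other 8 had factors from 0.93 to 1.40. Reads were also found over olfactory and vomeronasal receptor genes, which are taken as silent in these cells. Their median in a library, from 2.51 to 8.85 counts per kb over 1464 genes, times a gene's exon length gives the reads expected from background, called here the silent-gene rate. A pair of libraries stood apart in the mast cell genes. Control naive replicate 2 was low in most of them, and control treated replicate 2 had more Cpa3, Fcer1a, Mcpt1 and Mcpt2 than its partner. Log2 differences that move most without one of them are given with and without it, while correlations are over all 10 libraries.

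In GRCm38 (GENCODE M21), Cma1 (ENSMUSG00000022225) lies on the minus strand of chromosome 14 from 55941451 to 55944675, and Mcpt4 (ENSMUSG00000061068) on the same strand from 56059629 to 56062313. The tryptase genes are neighbours on chromosome 17, with Tpsab1 (ENSMUSG00000024173) from 25343245 to 25345562 on the minus strand and Tpsb2 (ENSMUSG00000033825) from 25366305 to 25369098 on the plus strand. Cpa3 (ENSMUSG00000001865) spans 20215620 to 20242181 of chromosome 3 on the minus strand, and Kit (ENSMUSG00000005672) spans 75574916 to 75656722 of chromosome 5 on the plus strand. Fcer1a (ENSMUSG00000005339) is at 173221284 to 173227214 of chromosome 1 and Ms4a2 (ENSMUSG00000024680) at 11615523 to 11623719 of chromosome 19, both on the minus strand. All 8 are annotated as protein coding.

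RefSeq promoters (GRCm38.p6) were matched for 6 of the 8 genes, all but Tpsb2 and Tpsab1. The 250 bases before the start are shown for 3 proteases and for Kit, because levels of the proteases were correlated across libraries and Kit stood apart from them. Capitals mark a GATA word, meaning AGATAA, the variant TGATAA, the variant AGATAG or the variant TGATAG on either strand. GATA factors are known regulators of mast cell genes.

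Cma1: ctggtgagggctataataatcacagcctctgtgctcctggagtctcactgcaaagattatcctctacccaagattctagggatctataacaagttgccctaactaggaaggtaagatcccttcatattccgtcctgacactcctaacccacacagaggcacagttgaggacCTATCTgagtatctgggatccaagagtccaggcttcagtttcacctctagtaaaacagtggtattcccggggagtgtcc

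Mcpt4: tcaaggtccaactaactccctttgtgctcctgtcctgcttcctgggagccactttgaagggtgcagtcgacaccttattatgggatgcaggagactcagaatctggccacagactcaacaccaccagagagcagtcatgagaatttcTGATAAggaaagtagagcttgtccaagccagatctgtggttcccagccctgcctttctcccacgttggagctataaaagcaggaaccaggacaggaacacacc

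Cpa3: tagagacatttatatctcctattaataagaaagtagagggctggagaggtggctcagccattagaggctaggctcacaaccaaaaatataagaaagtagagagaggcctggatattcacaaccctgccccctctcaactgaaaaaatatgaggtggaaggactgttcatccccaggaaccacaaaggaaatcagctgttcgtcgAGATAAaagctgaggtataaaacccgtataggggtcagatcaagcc

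Kit: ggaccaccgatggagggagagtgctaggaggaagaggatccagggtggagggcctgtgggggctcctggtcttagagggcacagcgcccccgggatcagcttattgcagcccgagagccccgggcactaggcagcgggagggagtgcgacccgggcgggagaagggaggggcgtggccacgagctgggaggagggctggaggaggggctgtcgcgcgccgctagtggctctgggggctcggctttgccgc

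These windows are chr14:55944676-55944925, chr14:56062311-56062560, chr3:20242182-20242431 and chr5:75574737-75574986, and each sequence is written 5′ to 3′ on the strand of its gene. Cma1, Mcpt4 and Cpa3 each held 1 GATA word, with its near edge 74, 98 and 41 bases before the start. No such word was found in the Kit window. Fcer1a held 1 and Ms4a2 held 3, so 5 of 6 windows had at least 1 (the Fcer1a window is placed by RefSeq, and the bases after its start were not found in a GENCODE transcript), where 27.1% of 27025 genes with a promoter in the table did. The words CATGTG and its palindromic form CACGTG, which the mast cell factor Mitf can bind, were found once, as CATGTG in Fcer1a, against 17.6% of all promoters with either. A match is only a match of letters in this window.

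The 8 genes fell into an abundant and a scarce set. Per kb of exon and averaged over the 10 libraries, Cma1 was the highest at 21.7 CPM per kb, followed by Cpa3 at 17.4 and Tpsb2 at 8.23. The other 5 followed at 1.95 for Fcer1a, 1.54 for Mcpt4, 0.73 for Tpsab1, 0.559 for Kit and 0.457 for Ms4a2. The silent-gene rate would give 1.30% of all Cma1 reads, 1.65% of Cpa3 reads and 3.49% of Tpsb2 reads. It would give 15.0% of Fcer1a, 18.8% of Mcpt4, 40.8% of Tpsab1, 58.2% of Kit and 63.7% of Ms4a2 reads. The 3 abundant genes therefore carry most of the measurable signal, while Ms4a2 and the naive values of Kit lie close to background.

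**Figure D1:**
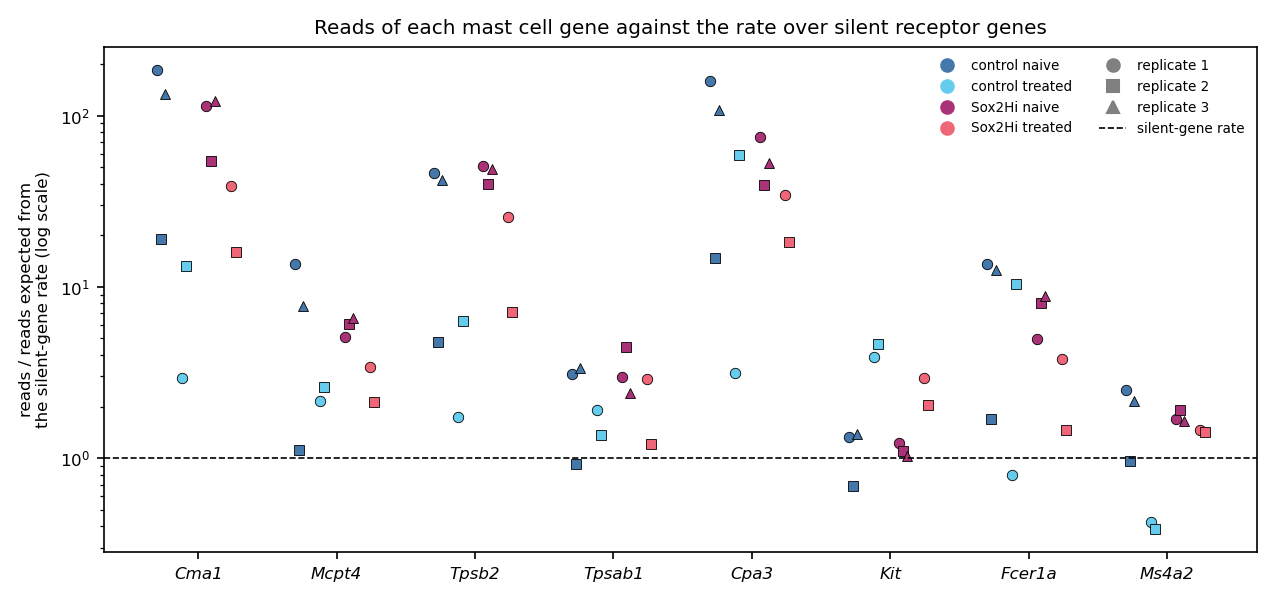
Reads of each gene in each of the 10 libraries divided by the reads expected from the silent-gene rate, on a log axis (colours are groups, shapes are replicates, and the dashed line is a ratio of 1). Cma1 and Cpa3 lie above the line in all 10 libraries, from 2.92 to 184 and from 3.15 to 159, while Kit is near it in the naive libraries and Ms4a2 is below it in both control treated libraries.

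Cma1, a chymase of connective-tissue mast cells, had 71.2, 9.57 and 46.9 CPM in control naive replicates 1 to 3 and 0.671 and 2.96 CPM in the control treated ones. It had 34.5, 15.4 and 35.3 CPM in Sox2Hi naive and 14.4 and 5.80 CPM in Sox2Hi treated. In both grafts every treated library was below every naive one. Control naive replicate 2, the lowest naive library, was still above 1 of the 2 Sox2Hi treated libraries. In reads, Cma1 ran from 8 in control treated replicate 1 to 1425 in control naive replicate 1.

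Mcpt4, the other chymase, was far scarcer, with 5.30, 0.572 and 2.74 CPM in control naive and 0.504 and 0.592 CPM in control treated. In Sox2Hi tumours it had 1.57, 1.75 and 1.96 CPM in naive and 1.29 and 0.785 CPM in treated libraries. The control groups overlapped through naive replicate 2, while the Sox2Hi groups did not overlap. Of the 31-base words in the Mcpt4 transcript, 12.2% also occur in transcripts of other genes, 10.2% in Cma2, so a share of its few reads could be split with that gene. For Cma1 this share was 10.6%, all with the predicted gene Gm48934.

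Tpsb2, which encodes the tryptase mast cell protease 6, had 26.1, 3.49 and 21.5 CPM in control naive and 0.587 and 2.07 CPM in control treated. It had 22.4, 16.6 and 20.9 CPM in Sox2Hi naive and 13.8 and 3.8 CPM in Sox2Hi treated. Neither graft's groups overlapped, and control naive replicate 2 again sat next to the treated libraries.

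Tpsab1, the tryptase mast cell protease 7, had 2.30, 0.885 and 2.25 CPM in control naive and 0.839 and 0.592 CPM in control treated. It had 1.72, 2.44 and 1.34 CPM in Sox2Hi naive and 2.07 and 0.846 CPM in Sox2Hi treated. The Sox2Hi groups overlapped, and 6 of its 10 libraries were over 2 times the silent-gene rate. The 2 tryptases share only 0.557% of the 31-base words of Tpsb2, so few of their words are common to both.

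Cpa3, a carboxypeptidase stored with the chymases in mast cell granules, had 85.6, 10.2 and 52.3 CPM in control naive. Its 2 control treated libraries differed widely, at 1.01 and 18.4 CPM. It had 31.6, 15.6 and 21.5 CPM in Sox2Hi naive and 17.8 and 9.24 CPM in Sox2Hi treated. Treated and naive libraries overlapped in both grafts, in control tumours because treated replicate 2 lay above naive replicate 2.

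Kit ran the other way. It had 4.20, 2.81 and 3.96 CPM in control naive and 7.30 and 8.51 CPM in control treated. It had 3.03, 2.56 and 2.46 CPM in Sox2Hi naive and 8.84 and 6.10 CPM in Sox2Hi treated, so that all 4 treated libraries were above all 6 naive ones. Against the silent-gene rate, Kit was at 0.685 to 1.39 times in the naive libraries and at 2.05 to 4.64 times in the treated ones. In control tumours this depended on the scaling, because in CPM of the plain library total Kit had 5.16, 3.91 and 4.75 in naive and 4.60 and 5.0 in treated libraries, which overlap.

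Fcer1a, the alpha subunit that binds immunoglobulin E and that basophils also make, had 4.80, 0.78 and 4.01 CPM in control naive and 0.168 and 2.14 CPM in control treated. It had 1.36, 2.09 and 2.35 CPM in Sox2Hi naive and 1.29 and 0.483 CPM in Sox2Hi treated. The Sox2Hi groups did not overlap, though by little, while the control groups did. The low value in control treated replicate 1 was 2 reads, under the floor of 3 counts.

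Ms4a2, the beta subunit of the same receptor, had 2.50, 1.25 and 1.96 CPM in control naive and 0.252 and 0.222 CPM in control treated. It had 1.31, 1.40 and 1.23 CPM in Sox2Hi naive and 1.40 and 1.33 CPM in Sox2Hi treated. The 2 control treated values are 3 reads each, at 0.42 and 0.38 times the silent-gene rate, and no library exceeded 2.51 times that rate. Ms4a2 thus carried little signal over background in any group.

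**Figure D2:**
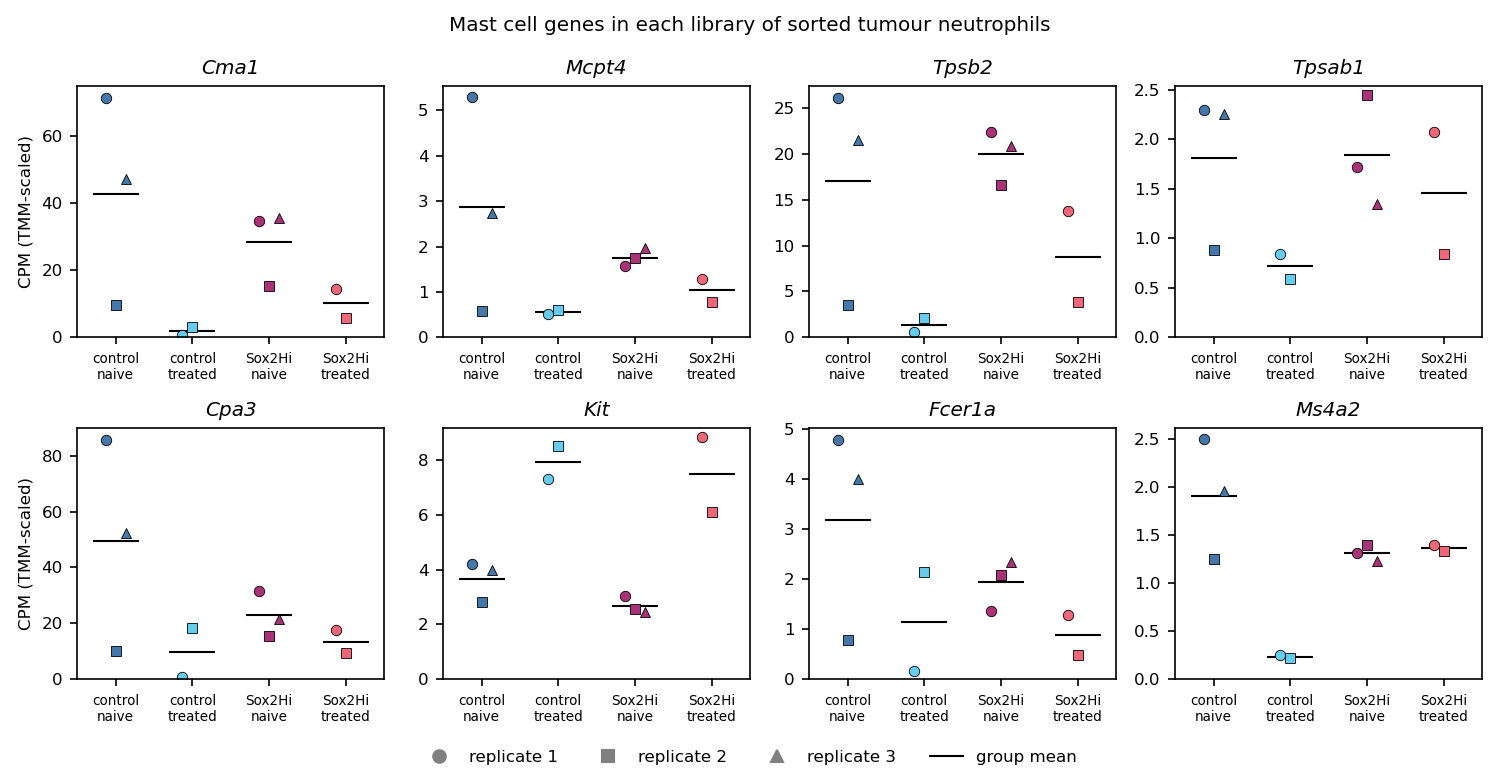
CPM of the 8 genes by library (points, with shape for the replicate) and group mean (line), each panel with its own linear axis. Cma1, Tpsb2 and Cpa3 reach 71.2, 26.1 and 85.6 CPM in control naive replicate 1, and Kit is higher in the 4 treated than in the 6 naive libraries.

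Treatment in Sox2Hi tumours is the comparison whose libraries did not enter the choice of genes. Of the 8 genes, 1 changed, Kit, where 3.61% of all genes tested did, 1.79% higher and 1.82% lower (edgeR quasi-likelihood test, Benjamini-Hochberg adjusted p under 0.05). Over all genes this was 531 higher and 539 lower, against 1436 and 439 with factors from expressed genes and 482 and 1307 under library totals, and Kit was called higher under each. Kit rose from 2.69 ± 0.30 CPM in naive (SD, n = 3) to 7.47 ± 1.9 CPM in treated libraries (SD, n = 2), by 1.47 on the log2 scale (SE 0.24, edgeR adjusted p = 0.0095). Without naive replicate 3 the change was 1.41 (edgeR adjusted p = 0.061) and without treated replicate 1 it was 1.19 (edgeR adjusted p = 0.076). With the silent-gene background subtracted from the counts, Kit differed by 4.20 (edgeR adjusted p = 0.030), with naive counts at 1.03 to 1.23 times the silent-gene rate before subtraction.

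The proteases had lower means in treated Sox2Hi tumours, but none passed the test. Cma1 was at 28.4 ± 11.3 CPM in naive (SD, n = 3) and 10.1 ± 6.1 CPM in treated libraries (SD, n = 2), a log2 difference of -1.49 (SE 0.73, edgeR adjusted p = 0.27). Tpsb2 was at 19.95 ± 3.0 and 8.78 ± 7.0 CPM, a log2 difference of -1.18 (SE 0.70, edgeR adjusted p = 0.36). Cpa3, at 22.9 ± 8.1 and 13.5 ± 6.0 CPM, differed by -0.76 (SE 0.89, edgeR adjusted p = 0.67). For the scarcer genes the log2 differences were -1.11 for Fcer1a (SE 0.82), -0.75 for Mcpt4 (SE 0.66), -0.32 for Tpsab1 (SE 0.46) and 0.05 for Ms4a2 (SE 0.31). Without treated replicate 1 the log2 differences were -2.38 for Tpsb2, -2.28 for Cma1, -1.97 for Fcer1a, -1.30 for Cpa3, -1.14 for Mcpt4 and -1.10 for Tpsab1. Without treated replicate 2 they were -0.55, -1.0, -0.60, -0.38, -0.46 and 0.16 in the same order, so their size rested on which treated library was kept. With all libraries, edgeR adjusted p-values of the 4 scarcer genes ran from 0.47 to 0.945, which does not show that the groups were alike. The median of the 8 log2 differences was -0.76, beside 0.07 for all 29648 genes.

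By ranks of the libraries alone, 4 genes had every treated Sox2Hi library below every naive one, Cma1, Mcpt4, Tpsb2 and Fcer1a, where 21.8% of all genes tested did. Kit was the 1 gene with every treated library above, against 22.0% of all genes.

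In control tumours, the mean of each protease was lower and that of Kit higher in treated libraries, though the groups overlapped for Cpa3 and Mcpt4. Because the set was chosen with this comparison known, its calls are a description and nothing is read from their number. The edgeR fit called 5 of the 8 genes, 4 lower (Cma1, Mcpt4, Tpsb2 and Ms4a2) and 1 higher (Kit), in a comparison that called 34.0% of all genes, 15.3% lower and 18.7% higher. This split depended on the scaling. Factors from expressed genes called 13310 genes lower and 3089 higher, and library totals called 20148 lower and 1492 higher, against 4533 and 5545 under TMM factors. Under either of them, 7 of the 8 genes were called lower, all but Kit, and none higher. Mcpt4 was not called with a replicate block by title or by description number, with RLE factors, with the control groups fitted alone or after background subtraction, nor without naive replicate 1 or either treated library, and Tpsb2 was not called without treated replicate 1. The log2 differences were -4.52 for Cma1 (SE 0.90), -3.65 for Tpsb2 (SE 0.87), -2.37 for Mcpt4 (SE 0.76) and -2.97 for Ms4a2 (SE 0.43). They were -2.33 for Cpa3 (SE 0.96), -1.42 for Fcer1a (SE 0.80) and -1.35 for Tpsab1 (SE 0.54). The median of the 8 was -2.35, beside -0.30 for all genes. Cma1, Tpsb2, Tpsab1 and Ms4a2 were lower with no overlap between the groups, as were 34.8% of all genes, and Kit was higher with none, as were 23.7%.

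How far Cpa3, Fcer1a and Cma1 differed depended on which control treated library was kept. Without treated replicate 2 the log2 differences were -5.59 for Cpa3, -4.18 for Fcer1a and -5.95 for Cma1. Without treated replicate 1 they were -1.41, -0.56 and -3.83 in the same order. Leaving out single libraries moved Mcpt4 to between -2.86 and -1.59 and Tpsb2 to between -4.82 and -3.02. Kit differed by 1.11 (SE 0.24) under TMM factors and by 0.05 under library totals. With the silent-gene background subtracted, Kit differed by 2.53 and Ms4a2 by -7.09, beside -2.97 for Ms4a2 without subtraction.

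**Figure D3:**
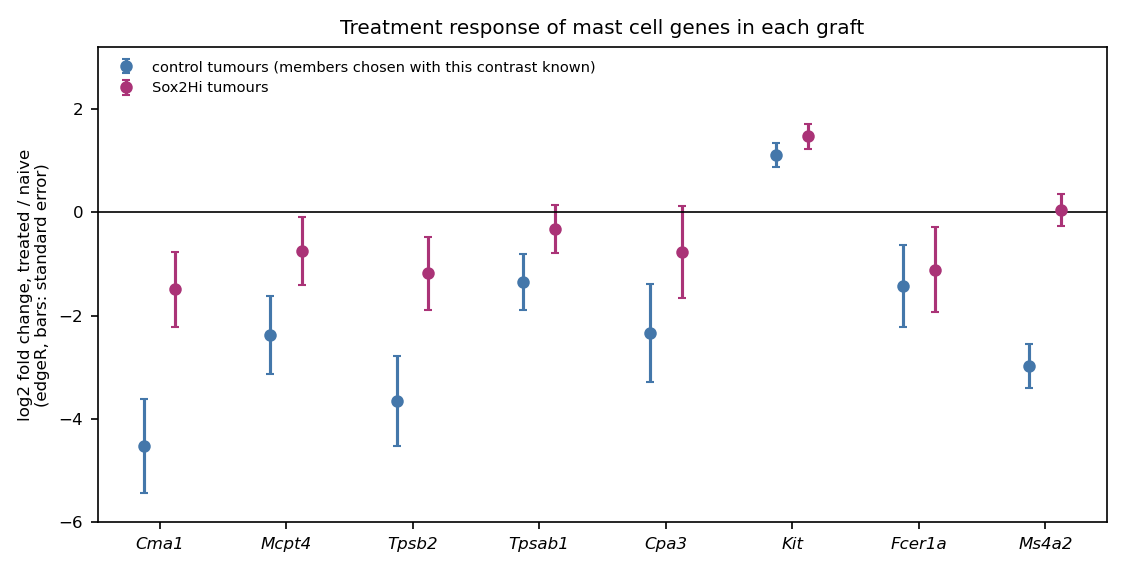
Log2 fold change of treated over naive libraries for the 8 genes in each graft, from the edgeR fit, with bars for 1 standard error. Kit is above 0 in both grafts, at 1.11 and 1.47, and Cma1 is the lowest in both, at -4.52 in control and -1.49 in Sox2Hi tumours.

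The grafts were also set side by side at each treatment. In naive tumours none of the 8 genes was called in the edgeR fit, where 1.87% of all genes were, 1.66% higher and 0.209% lower in Sox2Hi. With factors from expressed genes the split was 275 genes higher and 3726 lower, against 492 and 62, and Kit was called lower in Sox2Hi. None had groups without overlap, where 17.3% of all genes did with Sox2Hi higher and 17.4% with it lower. None had an unadjusted p under 0.05 either, and DESeq2 called none. In treated tumours 1 gene was called, Ms4a2, higher in Sox2Hi, against 13.7% of all genes, 4.18% higher and 9.57% lower. The split over all genes turned with the scaling, from 1240 higher and 2836 lower to 4916 and 670 with factors from expressed genes and to 10687 and 304 under library totals. DESeq2 also called 1 there, Tpsb2 in its place. The call of Ms4a2 was lost without control treated replicate 2 and without Sox2Hi treated replicate 1, and Cma1 and Tpsb2 were called besides it without control naive replicate 2. It was also lost after background subtraction and when the treated libraries were fitted alone, a fit that called 2 of 25287 genes. In the treated tumours, 5 genes had both Sox2Hi libraries above both control libraries, Cma1, Mcpt4, Tpsb2, Tpsab1 and Ms4a2, where 33.0% of all genes did. None had both below, where 27.3% of all genes did. The difference between the grafts in the treatment response was called for Ms4a2 alone, where it was called for 27.5% of all genes, 11.3% with the larger value in Sox2Hi and 16.2% with the smaller. This split turned too, from 3343 genes larger and 4806 smaller to 10503 and 535 with factors from expressed genes and to 12189 and 312 under library totals. The call of Ms4a2 was lost after background subtraction, where its value was 6.89. That call held with each library left out, and without control naive replicate 2 Cma1, Mcpt4 and Tpsb2 were called too, and Cpa3 without control treated replicate 2. These comparisons share the control libraries with the one in which Cma1 was noticed, so no p-value is given for a gene.

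Counted together, reads of Cma1, Mcpt4, Tpsb2, Tpsab1 and Cpa3 were a small share of every library. They made up 0.0234%, 0.00345% and 0.0151% of gene counts in control naive replicates 1 to 3 and 0.000227% and 0.00145% in the control treated ones. For Sox2Hi tumours the shares were 0.00994%, 0.00552% and 0.00867% before treatment and 0.0055% and 0.0019% after it. Clopper-Pearson 95% intervals, which cover counting error only, were 0.0227% to 0.0242%, 0.00314% to 0.00377% and 0.0145% to 0.0156% for the 3 control naive replicates, which do not overlap. These shares need no TMM factor, and in them too every treated library was below every naive one of its graft. In Sox2Hi tumours this order was within counting error, since the intervals of naive replicate 2 (0.00517% to 0.0059%) and treated replicate 1 (0.00514% to 0.00587%) overlap.

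The mix of proteases differed between libraries as well. Mcpt1, a chymase of mucosal mast cells and not among the 8 genes, had 9.59, 2.65 and 10.7 CPM in control naive, and 0.336 and 26.3 CPM in control treated. In Sox2Hi tumours it had 11.9, 16.9 and 8.34 CPM without treatment and 6.04 and 3.2 CPM with it. Control treated replicate 2 thus held the highest Mcpt1 of all libraries beside the lowest Cma1 and Tpsb2 but one. Reads of Mcpt1 and Mcpt2 together were 10.96 times those of Cma1 and Mcpt4 there, and between 0.201 and 1.30 times in the other 9 libraries. Reads of Cpa3 were 6.23 times those of Cma1 in that library and between 0.609 and 1.59 times in the others. Mcpt1 shares 6.71% of its 31-base words with other genes and had 355 reads in that library, beside 48 of Cma1 and Mcpt4 together.

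**Figure D4:**
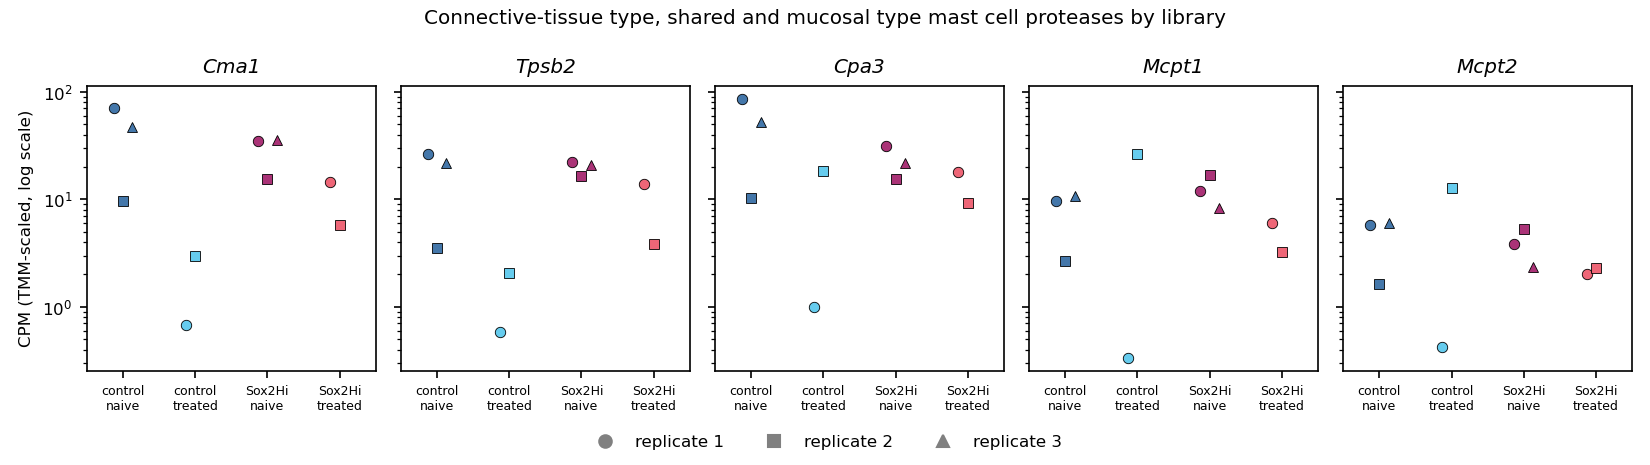
CPM on a log axis of 2 connective-tissue type proteases (Cma1, Tpsb2), the shared Cpa3 and 2 mucosal type proteases (Mcpt1, Mcpt2) in each library, with shape for the replicate. Control treated replicate 2 has 26.3 CPM of Mcpt1, the highest of the 10 libraries, and 2.96 CPM of Cma1, the second lowest.

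Across the 10 libraries the proteases were correlated, Tpsab1 the least. Pearson's r of log2 CPM between a gene and the mean of the 5 proteases, leaving out the gene itself, was 0.967 for Cma1, 0.950 for Tpsb2, 0.891 for Mcpt4, 0.868 for Cpa3 and 0.794 for Tpsab1. It was 0.852 for Ms4a2 and 0.849 for Fcer1a. Kit stood apart at -0.504 (n = 10 for each). With each group's mean removed, r was 0.976 for Tpsb2, 0.953 for Cma1, 0.838 for Mcpt4, 0.818 for Cpa3 and 0.581 for Tpsab1. It was then 0.918 for Fcer1a, 0.782 for Ms4a2 and 0.901 for Kit. Removing group means leaves fewer independent deviations than libraries, and Kit was at 0.685 to 1.39 times the silent-gene rate in naive libraries. The value of 0.901 is thus weak ground for a link within groups. Under TMM factors, Kit had higher and each protease lower means in treated than in naive libraries of either graft. Between the naive grafts Kit was lower in Sox2Hi (log2 difference -0.44), as were Cma1 (-0.58), Cpa3 (-1.11) and Mcpt4 (-0.71). Tpsb2 (0.23) and Tpsab1 (0.01) were not, and none of these was called under TMM factors. Tpsab1 and Cpa3 had r = 0.617 over all libraries and 0.356 within groups (n = 10). These correlations are descriptions over libraries that also share depth and background.

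Leaving out the 8 mast cell genes and predicted genes, the 8 genes most like the protease mean, of 21229 with at least 1 CPM on average, were Agpat1 (r = 0.939), Sema4c (0.936), Ttc26 (0.935), Plod2 (0.929), Spsb1 (0.924), Lum (0.922), Dync2li1 (0.921) and Bnc1 (0.920), over 10 libraries. Lum, which encodes the collagen-binding proteoglycan lumican of connective tissue, averaged 58.6 ± 31.1 CPM over naive control tumours (SD, n = 3) against 8.59 ± 2.2 CPM over treated ones (SD, n = 2). For Sox2Hi tumours the averages were 63.3 ± 11.8 CPM without treatment (SD, n = 3) and 15.9 ± 11.2 CPM with it (SD, n = 2).

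Some lists of genes of other tumour cells moved with the proteases in some libraries, and others did not. The 5 endothelial genes summed to 33.9 to 42.7 CPM in control naive and 37.5 to 47.3 CPM in control treated libraries. The 8 T and NK cell genes summed to 30.4 to 42.7 CPM and 72.7 to 255 CPM, with the highest sum in control treated replicate 2. The 8 fibroblast genes, all of which were tested, summed to between 224 and 736 CPM in control naive and between 115 and 121 CPM in control treated. They summed to between 516 and 769 CPM in Sox2Hi naive and between 97.4 and 301 CPM in Sox2Hi treated. None of the 8 was called in treated Sox2Hi tumours, where Col1a1 differed by -2.28 (SE 0.60, edgeR adjusted p = 0.061) and Dcn by -0.52. The median of the 8 log2 differences was -1.30. With factors from expressed genes 1 of the 8 was called lower in treated Sox2Hi tumours and under library totals 4 were, beside 439 and 1307 of 29648 genes. In control tumours 4 of the 8 were called lower under TMM factors, 7 with factors from expressed genes and 8 under library totals. In the same order, 4533, 13310 and 20148 of 29648 genes were called lower. The 8 keratinocyte genes overlapped between the control groups, with sums from 442 to 1637 CPM in naive and from 546 to 1128 CPM in treated libraries. In Sox2Hi tumours they summed to between 771 and 999 CPM in naive and between 492 and 724 CPM in treated libraries. The summed level of 5 erythroid genes was lower in treated libraries with no overlap in either graft. They summed to between 511 and 1192 CPM in control naive and 64.7 and 360.1 CPM in control treated, and to between 288 and 648 CPM in Sox2Hi naive and 22.3 and 58.3 CPM in Sox2Hi treated. In control tumours 1 of the 5, Hba-a1, was called lower under TMM factors, beside 15.3% of all genes. With factors from expressed genes 4 were and under library totals 5, beside 13310 and 20148 of 29648 genes. The control groups overlapped for Hbb-bt. The highest sum of the 5 genes was in control naive replicate 2, where the proteases were lowest among naive libraries. In treated Sox2Hi tumours, where 1.82% of all genes were called lower, 3 of the 5 fell, the globin genes Hba-a1, Hba-a2 and Hbb-bs, by 3.61, 3.55 and 3.49 on the log2 scale (edgeR adjusted p = 0.020, 0.034 and 0.031). Of 9 eosinophil genes, 7 were tested and 2 fell there, beside the same 1.82% of all genes, the granule protein gene Prg2 by 3.37 (edgeR adjusted p = 0.012) and the chemokine receptor Ccr3 by 2.30 (edgeR adjusted p = 0.0085), both named because they were called. The part of other cells in the protease values was not tested.

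**Figure D5:**
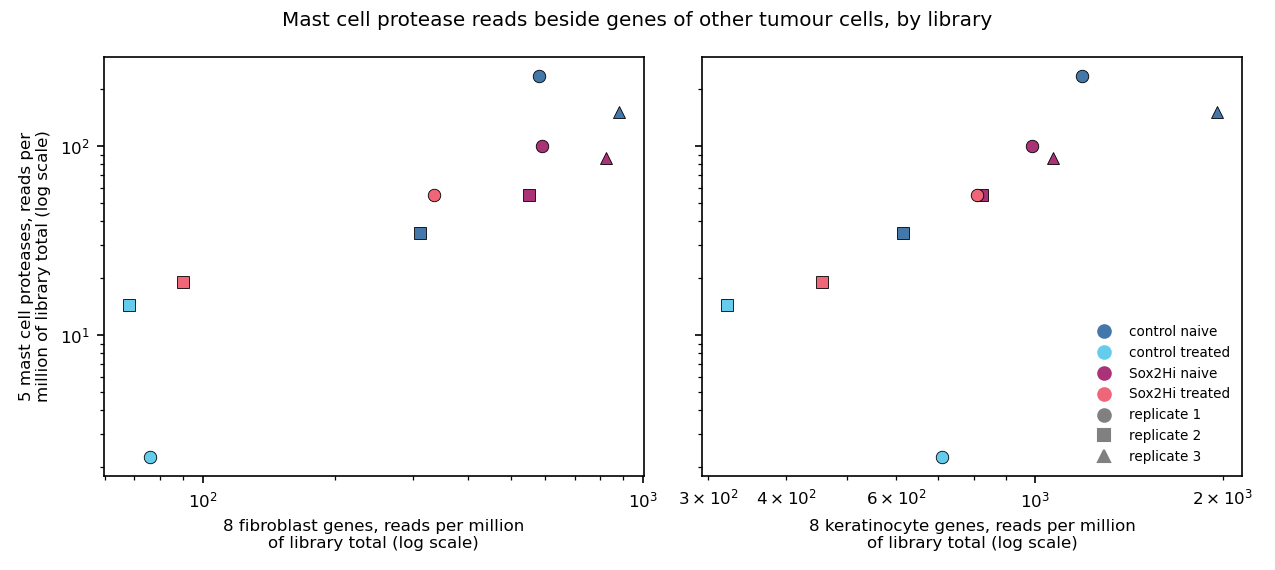
Reads of the 5 mast cell proteases against reads of 8 fibroblast genes (left) and 8 keratinocyte genes (right), both as CPM of the plain library total on log axes, 1 point per library. The 4 treated libraries hold at most 55.0 CPM of the 5 proteases, and control treated replicate 1 has the least, 2.27.

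The other markers of mast cells were given from lists. Of 6 further proteases, 5 were tested and none was called in treated Sox2Hi tumours by edgeR. Mcpt1 differed there by -1.42 (SE 1.00, edgeR adjusted p = 0.45) and Mcpt2 by -0.83 (SE 0.88, edgeR adjusted p = 0.64). Mcpt9 differed by 0.05 (edgeR adjusted p = 0.96) and Ctsg, a granule protease of myeloid cells, by 0.78 (edgeR adjusted p = 0.66). Of 16 other genes listed for mast cells, some of which other cells also make, 1 fell and none rose, beside 1.82% and 1.79% of all genes. It was Il1rl1, the receptor for interleukin 33, at -1.44 (SE 0.30, edgeR adjusted p = 0.030), named because it was the 1 gene called. The gene of this list with the highest level was Hdc, the histamine-forming enzyme, at 630.0 to 953 CPM in control naive and 2045 and 1324 CPM in control treated libraries. It was at 1224 to 1402 CPM in Sox2Hi naive and at 918 and 1077 CPM in Sox2Hi treated libraries. Hdc had r = -0.702 to the protease mean over 10 libraries and -0.918 within groups, and neutrophils are known to express it. Slc18a2, a transporter that loads monoamines into granules, had 27.9 to 32.6 CPM in control naive and 36.3 and 62.0 CPM in control treated libraries. In Sox2Hi tumours it was at 39.3 to 47.3 CPM before and at 22.3 and 27.0 CPM after treatment, a log2 difference of -0.78 (SE 0.23, edgeR adjusted p = 0.080). Rab27b, a GTPase of granule release, differed there by -0.34 (edgeR adjusted p = 0.48) and Hpgds, a prostaglandin D synthase, by -0.40 (edgeR adjusted p = 0.31). In control tumours 4 of the 16 were called higher (Hdc, Mitf, Adora3 and Slc18a2) and 3 lower (Mrgprb1, Mrgprb2 and Maob) under TMM factors, beside 18.7% and 15.3% of all genes. The control treated libraries held 3 reads each of Mrgprb1 and 2 each of Mrgprb2, below the silent-gene rate. They held 9 and 4 reads of Maob, at 1.28 and 0.515 times that rate. Under library totals 1 of the 16 was called higher and 11 lower in control tumours, beside 1492 and 20148 of 29648 genes. In Sox2Hi tumours 1 of the 16 rose and 1 fell with factors from expressed genes, beside 1436 and 439 of 29648 genes. Under library totals 2 fell, beside 1307 of 29648 genes.

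Of 14 genes that carry the signal from the immunoglobulin E receptor, 1 rose in treated Sox2Hi tumours, beside 1.79% of all genes. It was Lcp2, an adaptor protein of many blood cells, by 1.05 (SE 0.21, edgeR adjusted p = 0.027). Of the other genes with the highest levels, Fcer1g, the gamma subunit shared with other Fc receptors, differed by 0.60 (edgeR adjusted p = 0.12), the kinase Lyn by 0.62 (edgeR adjusted p = 0.071) and the kinase Syk by 0.23 (edgeR adjusted p = 0.49). All are widely made by myeloid cells. In control tumours 13 of the 14 were called higher under TMM factors, beside 18.7% of all genes. Under library totals 7 were, beside 1492 of 29648 genes. Of 9 genes for the Kit ligand and for cytokines and cytokine receptors of mast cells, 6 were tested and 1 fell in Sox2Hi tumours, beside 1.82% of all genes. It was Il4, at -2.22 (SE 0.42, edgeR adjusted p = 0.021), named because it was called. The receptor subunits Csf2rb and Csf2rb2 differed by 0.27 (edgeR adjusted p = 0.50) and 0.39 (edgeR adjusted p = 0.28), and the cytokine Il33 by -0.31 (edgeR adjusted p = 0.76). Kitl, the ligand of Kit, differed by -0.80 (SE 0.33, edgeR adjusted p = 0.19).

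Markers of cells that share a gene with mast cells were read beside Fcer1a and Kit. Mcpt8, a protease of basophils despite its name, fell in treated Sox2Hi tumours by 3.40 on the log2 scale (SE 0.59, edgeR adjusted p = 0.015). It was at 6.62, 3.2 and 7.06 CPM in naive and 0.224 and 0.846 CPM in treated libraries. It was the 1 gene called of 5 basophil genes, beside 1.82% of all genes called lower, and is named for that. With factors from expressed genes 1 of the 5 was called higher and 1 lower, beside 1436 and 439 of 29648 genes. Under TMM factors Cd200r3, a receptor of basophils, differed by 0.70 (SE 0.21, edgeR adjusted p = 0.084). The log2 differences were 0.10 for Il3ra and -0.26 for Prss34, which did not pass. The 5 basophil genes, Fcer1a among them, summed to between 11.2 and 17.0 CPM in Sox2Hi naive and between 11.1 and 12.4 CPM in Sox2Hi treated. The sums were between 17.9 and 21.2 CPM in control naive and between 7.89 and 9.69 CPM in control treated. The part of basophils in the Fcer1a values was not tested.

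For Kit, which melanocytes and blood progenitors also make, the melanocyte list of 8 genes had 7 that were tested. Kit was the 1 that changed in Sox2Hi tumours under TMM factors, beside 3.61% of all genes. With factors from expressed genes 2 of the 7 were called higher, beside 1436 of 29648 genes. Tyr, the tyrosinase of pigment synthesis, was below the silent-gene rate in all 10 libraries, at most at 0.895 times. Dct, another enzyme of pigment synthesis, was above it in all 10, at 2.80 to 4.55 times, and differed by 0.38 in Sox2Hi tumours (SE 0.18, edgeR adjusted p = 0.26). Pmel, a melanosome protein, was at 1.17 to 2.78 times. Mitf, which melanocytes and mast cells share with other myeloid cells, differed by 0.61 in Sox2Hi tumours (SE 0.20, edgeR adjusted p = 0.11). Of the 14 neutrophil genes, 7 were called higher in treated Sox2Hi tumours, beside 1.79% of all genes, and the other 7 did not pass. Which cells the Kit reads came from was not tested.

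The libraries also differed in Ddx3y, a gene of the Y chromosome, with at most 8 reads in 4 libraries, 1 from each group, and at least 1007 in the other 6. Within the 4 low libraries, Cma1 was at 71.2 CPM in control naive and 0.671 CPM in control treated, and at 34.5 CPM in Sox2Hi naive and 5.80 CPM in Sox2Hi treated. Within the other 6 it was at 9.57 and 46.9 CPM in control naive and 2.96 CPM in control treated, and at 15.4 and 35.3 CPM in Sox2Hi naive and 14.4 CPM in Sox2Hi treated. Kit in Sox2Hi tumours was at 3.03 CPM in naive and 6.10 CPM in treated among the low libraries, and at 2.56 and 2.46 CPM in naive and 8.84 CPM in treated among the others. Within each kind of library treated values lay below naive ones of the same graft for Cma1 and, in Sox2Hi tumours, above them for Kit. This order was fixed in advance, because without the split treated and naive libraries of a graft did not overlap for these genes. The split is thus no test of a part of Ddx3y in these values. With Ddx3y as a covariate, Kit differed by 1.47 in Sox2Hi tumours (edgeR adjusted p = 0.014).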

How the data were processed

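Bulk RNA-seq was analysed from the whole-number counts per gene that the authors deposited as 1 table with a column for each of 10 libraries. Per the labels' protocols, libraries were made with a low-input kit after column extraction. The submitters' processing notes name kallisto 0.44.0 and mm10. The annotation, strand setting and any rounding of estimates are not given in the sources used here. Of 55481 entries, 55385 are mouse genes and 55144 matched GENCODE M21. The other 96 entries, spike-in and transgene sequences, made up at most 0.00277% of a library and stayed out of library sizes and tests.

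Groups came from the titles in the labels. The 8 genes and the lists were chosen with earlier results of these data known. All 8 are reported, and from the further mast cell lists the up to 4 with the highest mean CPM. Called genes, and genes of the lists for other cell types, were named after their values were seen. All 10 libraries entered 1 model of 4 groups in edgeR 4.0.16 (R 4.3.3, filterByExpr, TMM factors, quasi-likelihood test, Benjamini-Hochberg adjustment over 29648 genes, call at adjusted p under 0.05). A standard error is a gene's log2 difference over the root of its F statistic. Likeness used log2(CPM + 0.5). The common biological coefficient of variation was 0.232. Totals of 13815734 to 22986193 counts per library put the floor of 3 counts at 0.131 to 0.217 CPM of the library total. The procedure was tested on simulated data.

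Alternatives were DESeq2 1.42.0, RLE factors, scaling by genes of at least 5 CPM, no filter, replicate blocks, groups alone, a Ddx3y covariate, background subtraction and each library left out in turn. Library totals and a block in the naive libraries alone were added after seeing the data. No 2 replicates agreed within sampling noise (smallest chi-square per degree of freedom 12.5). The pairing by title number was checked by correlating deviations from group means, which gave 0.274, 0.241 and 0.180 for the 3 naive pairs. The numbers thus pair the naive libraries, from this check and not from the labels. Between naive and treated libraries of the same number and graft, r was 0.194 and 0.166 in control tumours. In Sox2Hi tumours it was -0.268 and -0.185, so the title numbers are not shown to pair treated with naive libraries there.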

Additional observations from a re-analysis of the deposited data

Results flagged for a closer look

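Ms4a2, the beta subunit of the immunoglobulin E receptor, is listed because its response to treatment differed between the grafts in the edgeR interaction term. The difference was 3.03 on the log2 scale (SE 0.54), from a log2 difference of -2.97 in control and 0.05 in Sox2Hi tumours. It rests on 3 reads in each control treated library, which is below the silent-gene rate there, and 27.5% of all genes were called in this interaction. With the silent-gene background subtracted, Ms4a2 differed by 6.89 and none of the 8 genes was called. The control libraries are those in which Cma1 was noticed, so no p-value is given.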

How the results depend on the processing

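Library number and background limit these values. With 2 treated libraries in each graft, 1 library can decide a call, and for Tpsab1, Kit and Ms4a2 the silent-gene rate equals 40.8% to 63.7% of their reads. Counts of the 8 genes called in the edgeR fit were 5, 1, 0, 1 and 1 for, in this order, control treatment, Sox2Hi treatment, the grafts when naive, the grafts when treated, and the interaction. Leaving out each library gave 3 to 7, 0 to 1, 0 to 0, 0 to 3 and 1 to 4. The expressed-gene scaling, which tests only Cma1, Cpa3 and Tpsb2 of the 8, gave 3, 0, 0, 2 and 1. Factors from expressed genes gave 1 for the naive grafts (Kit), 3 for the treated grafts and 4 for the interaction, library totals gave 4 and 6 for the last pair, background subtraction gave 0 and 0, and the fit of the treated groups alone gave 0. All genes called numbered 10078, 1070, 554, 4076 and 8149 in the same order of comparisons. For treatment in control tumours the count was 6329 under the expressed-gene scaling, 16399 with expressed-gene factors, 6629 after background subtraction and 21640 under library totals, and 6004 to 9848 when 1 library was left out. For treatment in Sox2Hi tumours it was 2414, 1875, 2756 (groups alone), 1789 (library totals) and 3353 (DESeq2), and 82 to 2492 with 1 library left out. For the naive grafts it was 1289 (RLE), 1479, 4001, 24 (groups alone), 204 (Ddx3y covariate), 23 (library totals) and 4114 (DESeq2), and 3 to 2166 with 1 left out. For the treated grafts it was 2184, 2 (groups alone), 745 (background subtracted) and 10991 (library totals), and 66 to 5211 with 1 left out. For the interaction it was 2048, 1734 (background subtracted) and 12501 (library totals), and 3969 to 9263 with 1 left out. The replicate block by title number, which pairs the naive libraries, left 0 of the 8 genes called between the naive grafts and raised all calls from 554 to 2282, or to 3841 in the naive libraries alone. A block by the number in the descriptions, which is not shown to pair libraries, gave 301 there and called 2 of the 8 genes in Sox2Hi treatment, Kit and Cma1 (log2 difference -2.18, edgeR adjusted p = 0.028). Signs turned in that comparison for Ms4a2, at -0.0440 with no filter, -0.055 with the description block, -0.20 after background subtraction and -0.0177 under library totals, and for Tpsab1, whose difference ran from -1.10 to 0.16 when 1 library was left out, the last without Sox2Hi treated replicate 2. Apart from the counting of fewer genes or libraries, the cause was not tested.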
